A study of Homo sapiens with 6 samples.

Results

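Cells carry a set of proteins that recognise double-stranded RNA and one enzyme, ADAR, that edits it. The expression of 9 such genes was followed in A549, an established human lung adenocarcinoma line, after knockdown of HNRNPD. The genes were taken by name from the 56303 rows of a table of read counts, and all 9 were present: DDX58, IFIH1, DHX58, DDX60, TLR3, MAVS, EIF2AK2, ZBP1 and ADAR. All 9 also passed the filter on low counts, which left 20465 genes for testing. The comparison was between 3 RNA-seq libraries of A549 cells transfected with an siRNA against HNRNPD and 3 libraries of A549 cells transfected with a negative-control siRNA. HNRNPD encodes AUF1, a protein known to bind AU-rich RNA. An siRNA is itself a short RNA duplex, so both groups had received one, and no untransfected library was among the 6. A response to the HNRNPD siRNA as a duplex and an effect of lower HNRNPD cannot be told apart in these libraries. The labels give no siRNA sequence, dose or time after transfection. They also do not say whether replicates 1 to 3 were grown as separate cultures. The p-values therefore describe the variation among these 6 libraries, and part of it may be technical.

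Double-stranded RNA is rare in healthy cytoplasm and is read as a sign of viral infection. RIG-I (DDX58) and MDA5 (IFIH1) are cytosolic helicases that bind it and signal through the mitochondrial adaptor MAVS, which leads to the production of type I interferon. TLR3 reads it in endosomes, and PKR (EIF2AK2) halts translation when bound to it. ADAR converts adenosine to inosine in such duplexes, which keeps cellular RNA from being read by MDA5 and PKR. Many of these genes are known to be induced by interferon, so that a first signal raises the sensors themselves.

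The libraries held 37151094 to 40462117 counts with HNRNPD siRNA and 42607632 to 43005090 counts with control siRNA. Levels are given as CPM, counts per 1000000 counts after TMM scaling, and a call of higher or lower means an adjusted p below 0.05 in edgeR's quasi-likelihood test. HNRNPD itself stood at 177, 163 and 167 CPM in HNRNPD siRNA replicates 1 to 3 and at 965, 943 and 942 CPM in control replicates 1 to 3, as labelled. The epithelial keratin genes KRT8, KRT18 and KRT7 were abundant in every library, at 567 CPM or more. The other epithelial markers were lower, with CDH1 at 80.8 to 100 CPM, EPCAM at 16.2 to 22.2 CPM and KRT19 at 3.44 to 7.59 CPM. Of 6 epithelial markers, 4 were called lower and 1 higher after HNRNPD knockdown (median log2 fold change -0.66), and their part in the results was not tested. Of 13 haematopoietic markers, only CD14, ITGAM and NKG7 passed the filter. The summed level of the 13 was 4.41 to 5.42 CPM with HNRNPD siRNA and 7.12 to 8.51 CPM with control siRNA, and that of 9 endothelial and fibroblast markers was 7.11 to 8.41 CPM with HNRNPD siRNA and 5.24 to 6.32 CPM with control siRNA. PTPRC, the defining gene of white blood cells, had 0 counts in each HNRNPD siRNA library and 0, 2 and 2 counts in control replicates 1 to 3.

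All 9 genes were higher after HNRNPD knockdown, and 8 of them by at least 2-fold. Among all tested genes, 28.4% were called higher and 27.8% lower, and 10.2% were called higher by at least 2-fold. For each of the 9 genes, every HNRNPD siRNA library lay above every control library, which was so for 31.7% of all tested genes. The median log2 fold change of the 9 genes was 3.92, with a range of 0.23 to 5.47, against 0.01 over all tested genes. The counts were the same with DESeq2 and with limma-voom, at 9 higher and 0 lower. In bulk RNA, a change in the number of cells that express a gene and a change in RNA per cell cannot be told apart.

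**Figure D1:**
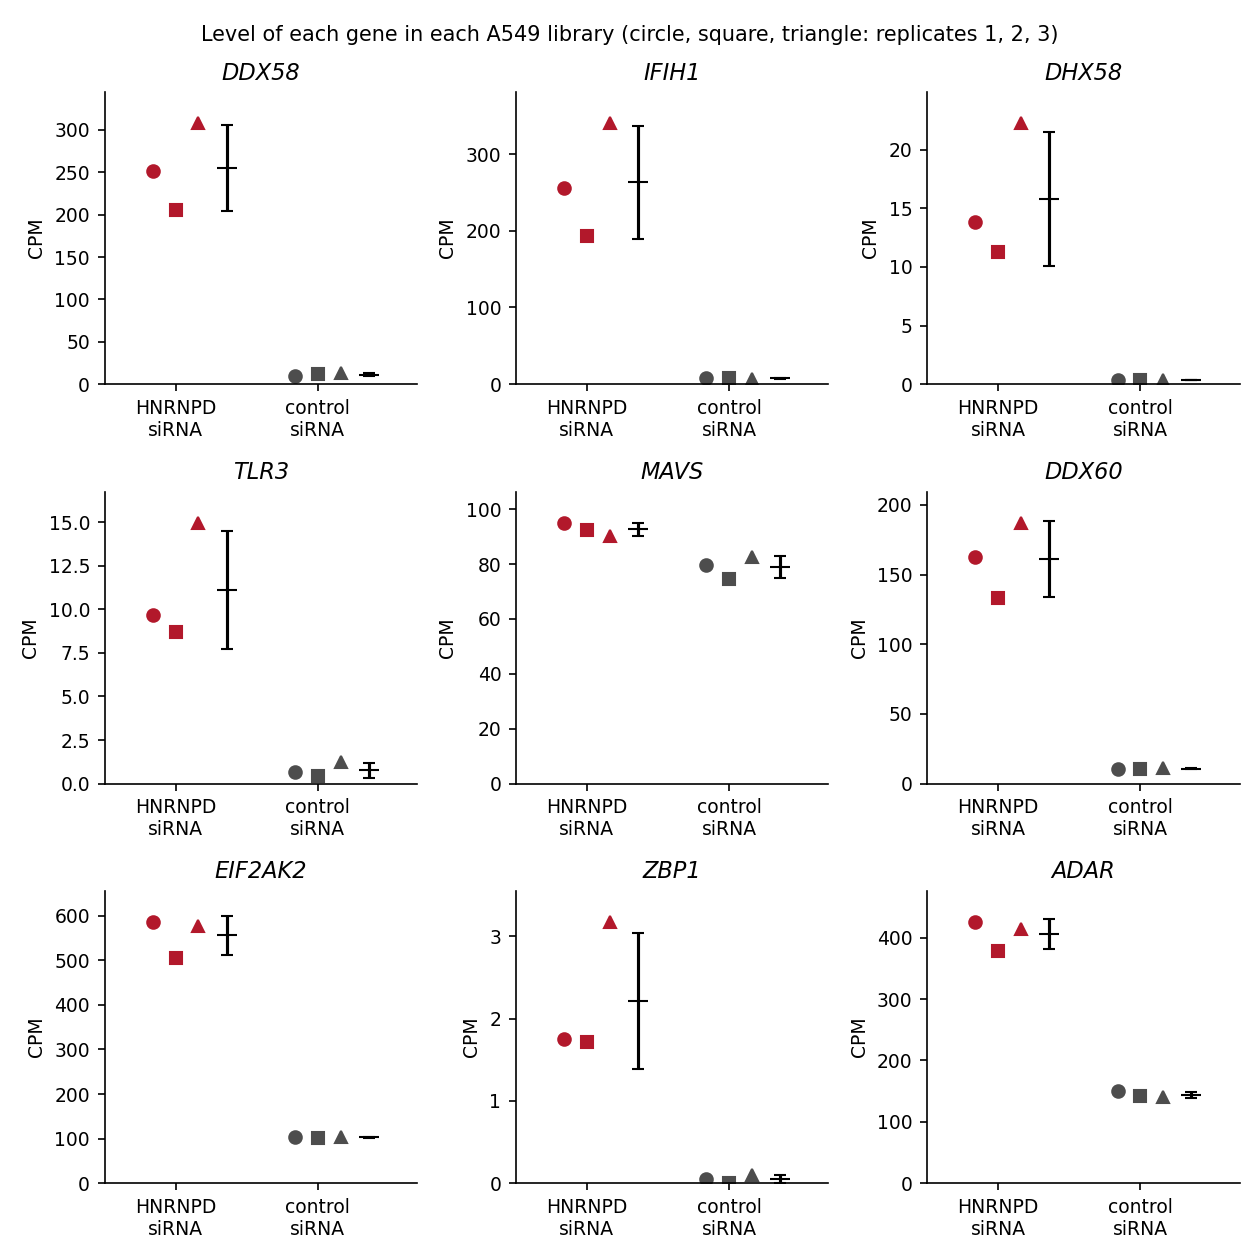
CPM (y axis, linear from 0) of the 9 genes in each of the 3 HNRNPD siRNA libraries (red, left) and the 3 control siRNA libraries (grey, right). Circles, squares and triangles are replicates 1, 2 and 3, and the black mark beside each group is the mean with its SD. The groups are apart in all 9 panels, with the smallest gap for MAVS, and HNRNPD siRNA replicate 3 is the highest library for 6 of the 9 genes.

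DDX58, the gene of RIG-I, which recognises short duplexes with a 5′ triphosphate, had 252, 205 and 308 CPM in HNRNPD siRNA replicates 1 to 3. In control replicates 1 to 3 it had 9.44, 11.4 and 13.2 CPM. The groups were far apart. HNRNPD siRNA replicate 3 was 1.50 times replicate 2. The fitted fold change was 22.5 (log2 4.49, SE 0.22, edgeR adjusted p = 2.76e-05). It is encoded on the minus strand of chromosome 9 from 32455705 to 32526324 (GRCh38, as the table's exons give it).

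IFIH1, the gene of MDA5, which prefers long duplexes, had 256, 194 and 340 CPM with HNRNPD siRNA and 8.24, 7.56 and 6.91 CPM with control siRNA. HNRNPD siRNA replicate 3 was 1.76 times replicate 2, while the control libraries were close to one another. The fitted fold change was 34.7 (log2 5.12, SE 0.29, edgeR adjusted p = 0.000111). IFIH1 lies on the minus strand of chromosome 2 from 162267079 to 162318703.

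DHX58 encodes LGP2, a relative of RIG-I and MDA5 that lacks the signalling domains and modulates them. It had 13.8, 11.3 and 22.3 CPM with HNRNPD siRNA and 0.352, 0.350 and 0.381 CPM with control siRNA. It was thus close to silent in the control cells, where 15, 15 and 16 counts were found. The fold change of 43.4 (log2 5.44, SE 0.38, edgeR adjusted p = 1.66e-05) was among the 3 largest of the 9 genes. The ratio of summed counts was 43.7, with an exact 95% interval of 32.6 to 59.9 that covers counting error only.

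DDX60, a helicase-like protein described as an aid to RIG-I signalling, had 163, 133 and 187 CPM with HNRNPD siRNA and 10.4, 10.5 and 11.0 CPM with control siRNA. The fold change was 15.1 (log2 3.92, SE 0.12, edgeR adjusted p = 1.03e-09). Its paralog DDX60L had 534 ± 143 CPM with HNRNPD siRNA and 29.0 ± 2.19 CPM with control siRNA (SD, n = 3 each), a fold change of 18.4 (edgeR adjusted p = 0.000117). The labels do not say how reads matching both paralogs were treated.

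TLR3, the endosomal receptor of double-stranded RNA, was a low-level gene in both groups. It had 9.67, 8.69 and 15.0 CPM with HNRNPD siRNA and 0.657, 0.420 and 1.24 CPM with control siRNA. The control values rest on 28, 18 and 52 counts and had a coefficient of variation of 54.6%, above that of every other member except ZBP1. The fold change was 14.4 (log2 3.85, SE 0.39, edgeR adjusted p = 0.00019).

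MAVS, the adaptor on the outer mitochondrial membrane to which RIG-I and MDA5 both signal, was the exception in size. It had 95.0, 92.5 and 90.4 CPM with HNRNPD siRNA and 79.6, 74.5 and 82.5 CPM with control siRNA. The groups did not overlap, but the difference was only 1.18-fold (log2 0.23, SE 0.06, edgeR adjusted p = 0.00296). A larger log2 fold change was found for 35.9% of all tested genes. For the sensors upstream of MAVS that share was 0.342% (DDX58) and 0.244% (IFIH1).

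EIF2AK2 encodes PKR, the kinase that phosphorylates eIF2α when it binds double-stranded RNA. It had 585, 505 and 577 CPM with HNRNPD siRNA and 103, 102 and 103 CPM with control siRNA, the tightest control group of the 9 genes. The fold change was 5.42 (log2 2.44, SE 0.07, edgeR adjusted p = 4.09e-15). Of its exonic bases, a fraction of 0.041 is shared with other genes, the only such overlap among the 9. The pseudogene AC007899.3, with a fraction of 0.517 of its bases inside EIF2AK2 exons on the opposite strand, was at 40.2 ± 4.17 CPM with HNRNPD siRNA and 6.90 ± 0.668 CPM with control siRNA (SD, n = 3 each), and its counts cannot be told apart from those of EIF2AK2. GPATCH11, whose exons overlap those of EIF2AK2 by 35 bases on the opposite strand, went the other way. It averaged 21.3 ± 1.30 CPM with HNRNPD siRNA and 65.2 ± 1.60 CPM with control siRNA (log2 fold change -1.61, SE 0.07).

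ZBP1 encodes a sensor of left-handed (Z-form) nucleic acid that can start necroptosis. It was the rarest of the 9 genes, with 1.76, 1.72 and 3.17 CPM with HNRNPD siRNA and 0.0470, 0 and 0.0954 CPM with control siRNA. The counts behind these levels were 64, 72 and 127 in the HNRNPD siRNA libraries and 2, 0 and 4 in the control libraries. The ratio of summed counts was 47.2, with an exact 95% interval of 21.4 to 130 for counting error. The fitted log2 fold change was 5.47 (SE 0.50, edgeR adjusted p = 6.3e-08), and 6.38 without control replicate 3, which holds 4 of the 6 control counts.

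ADAR, the editing enzyme, had 425, 378 and 414 CPM with HNRNPD siRNA and 150, 141 and 140 CPM with control siRNA. The fold change was 2.82 (log2 1.50, SE 0.06, edgeR adjusted p = 8.69e-13), and 4.99% of tested genes had a larger one. ADAR is made as a constitutive nuclear isoform and as a longer, interferon-inducible isoform from another start. A count per gene adds them, so their shares are not given by these data.

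**Figure D2:**
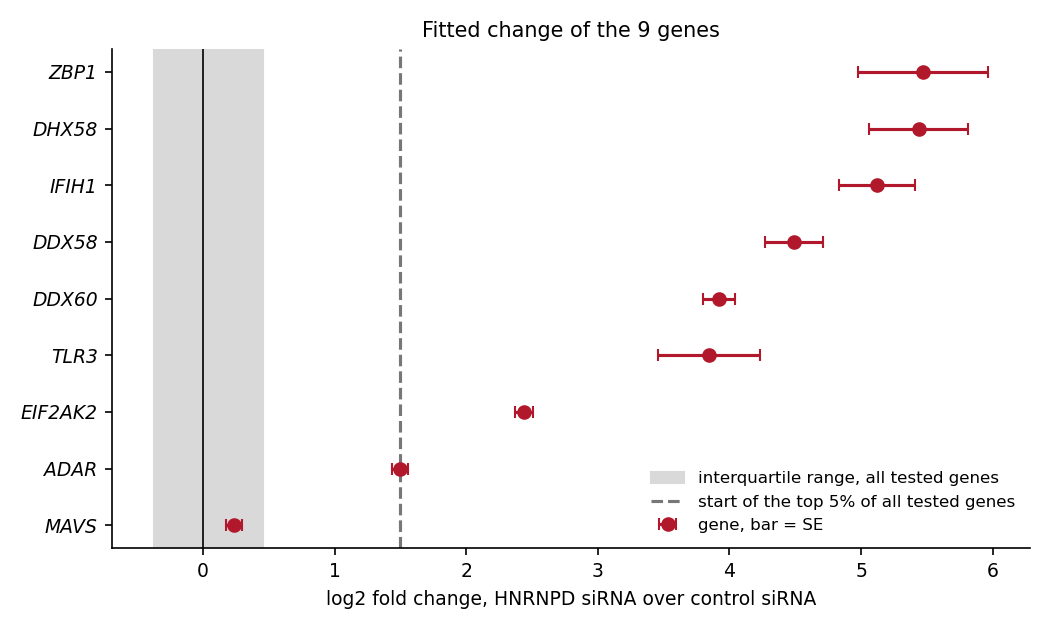
Fitted log2 fold change of the 9 genes, HNRNPD siRNA over control siRNA (x axis), with bars of 1 SE. The grey band is the interquartile range of all 20465 tested genes, from -0.37 to 0.46, and the dashed line marks where the top 5% of them begin, at 1.50. MAVS lies inside the band, ADAR on the line, and the other genes to the right of it.

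The interferon-stimulated response element, found in promoters of many interferon-induced genes, is a repeat of GAAA with a spacing of 2 bases. Promoter windows are shown for this reason for the members with a match, beside those of DDX58 and MAVS, which had none. The windows of ADAR, also without a match, are not printed. RefSeq promoters of GRCh38.p14, 250 bases before to 50 bases after a start, were found for 7 of the 9 genes, with 3 starts for ADAR. DHX58 and ZBP1 were not among them. The letters GAAANNGAAA were searched on both strands. They occurred in 4 of the 7 genes, IFIH1, DDX60, EIF2AK2 and TLR3. Counted by window, this was 4 of the 9 windows of these genes, against 3.57% of 35116 promoter windows of the same length. The windows printed run from 170 bases before to 10 bases after each start, 5′ to 3′ on the strand of the gene, with matches to GAAANNGAAA on either strand in capitals.
IFIH1, chr2:162318675-162318854, minus strand: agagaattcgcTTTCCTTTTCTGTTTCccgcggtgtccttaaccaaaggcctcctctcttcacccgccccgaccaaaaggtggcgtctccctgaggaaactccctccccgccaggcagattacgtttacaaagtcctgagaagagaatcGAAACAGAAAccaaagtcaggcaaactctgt
DDX60, chr4:168318743-168318922, minus strand: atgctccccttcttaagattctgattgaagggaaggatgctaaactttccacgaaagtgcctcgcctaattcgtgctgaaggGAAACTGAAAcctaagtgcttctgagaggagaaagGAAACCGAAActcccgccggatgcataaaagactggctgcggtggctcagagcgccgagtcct
EIF2AK2, chr2:37156971-37157150, minus strand: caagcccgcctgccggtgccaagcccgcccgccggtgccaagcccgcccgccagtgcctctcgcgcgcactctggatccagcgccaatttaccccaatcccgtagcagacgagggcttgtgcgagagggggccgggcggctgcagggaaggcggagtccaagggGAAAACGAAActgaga
TLR3, chr4:186068986-186069165, plus strand: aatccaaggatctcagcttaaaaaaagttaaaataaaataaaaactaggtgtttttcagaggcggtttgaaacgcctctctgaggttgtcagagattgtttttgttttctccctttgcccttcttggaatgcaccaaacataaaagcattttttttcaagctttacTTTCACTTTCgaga
DDX58 (RIGI in RefSeq), chr9:32526187-32526366, minus strand: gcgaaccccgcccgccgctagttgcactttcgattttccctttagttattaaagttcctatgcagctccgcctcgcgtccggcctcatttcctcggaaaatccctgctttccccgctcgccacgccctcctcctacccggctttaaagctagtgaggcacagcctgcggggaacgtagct
MAVS, chr20:3846664-3846843, plus strand: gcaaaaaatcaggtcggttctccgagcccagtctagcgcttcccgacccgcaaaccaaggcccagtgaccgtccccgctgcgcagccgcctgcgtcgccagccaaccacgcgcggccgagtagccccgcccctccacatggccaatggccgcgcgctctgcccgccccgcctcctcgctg

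IFIH1 held 3 matches, of which the pair at 159 and 153 bases before the start overlap and share letters, and the other begins 21 bases before it. DDX60 had matches that begin 88 and 53 bases before the start. In EIF2AK2 and TLR3 a single match spans the start itself, beginning 6 and 4 bases before it. For DDX58, MAVS and the 3 ADAR starts, GAAANNGAAA was not in these windows, and nothing about binding follows from that. By number of matches, the log2 fold change was 5.12 for IFIH1 with 3 and 3.92 for DDX60 with 2. It was 3.85 for TLR3 and 2.44 for EIF2AK2 with 1 each, and 4.49 for DDX58, 1.50 for ADAR and 0.23 for MAVS with 0. DHX58 at 5.44 and ZBP1 at 5.47 had no window to search. A relation between matches and fold change was not tested.

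The AU-rich pentamer ATTTA, part of the sequences that AUF1 is known to bind, was counted in 3′ untranslated regions of GENCODE 29 transcripts, on the transcript strand. Of 12776 tested genes with a region of at least 100 bases, 70.6% held it, at a median of 1.64 per 1000 bases. TLR3 held 14 in 3196 bases and EIF2AK2 22 in 8063 bases. DDX60 held 4 in 640 bases and IFIH1 1 in 121 bases, while DDX58 held 1 in 1417 bases. MAVS, with the smallest change, held 11 in 9963 bases, and ADAR 3 in 2749 bases. DHX58 and ZBP1, with the 2 largest fitted fold changes, held 0. The longer element TTATTTATT was found in MAVS once and in no other member, and in 8.27% of all such regions. One transcript per gene was used, the one with the longest coding part.

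Levels can be compared between genes only per length, so each CPM was divided by the gene's exonic length in kilobases. In the HNRNPD siRNA libraries DDX58 and IFIH1 were level with the abundant genes of the group. Per kilobase, DDX58 averaged 58.6 ± 11.8 CPM, IFIH1 58.1 ± 16.2 CPM, EIF2AK2 51.7 ± 4.11 CPM and ADAR 48.5 ± 2.93 CPM (SD, n = 3 each). The libraries of these 4 genes overlapped from one to the next, so their order is not resolved. DDX60 followed at 23.8 ± 4.02 CPM per kilobase, MAVS at 7.87 ± 0.197, DHX58 at 4.11 ± 1.49, TLR3 at 1.65 ± 0.502 and ZBP1 at 0.410 ± 0.153, each apart from its neighbours.

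The order in the control libraries was another one. ADAR led at 17.2 ± 0.623 CPM per kilobase, ahead of EIF2AK2 at 9.54 ± 0.0780 and MAVS at 6.70 ± 0.344 (SD, n = 3 each). The RIG-I gene DDX58 stood at 2.60 ± 0.428, IFIH1 at 1.67 ± 0.147 and DDX60 at 1.57 ± 0.0535, and the libraries of IFIH1 and DDX60 overlapped. TLR3 at 0.115 ± 0.0627 and DHX58 at 0.0940 ± 0.00456 overlapped as well, and ZBP1 was lowest at 0.00878 ± 0.00882. MAVS was thus above both of its upstream sensors in the control libraries and below both in the HNRNPD siRNA libraries. The length used is the union of all annotated exons, which for MAVS is 11771 bases, and a gene whose long exons are little used is understated on this scale.

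**Figure D3:**
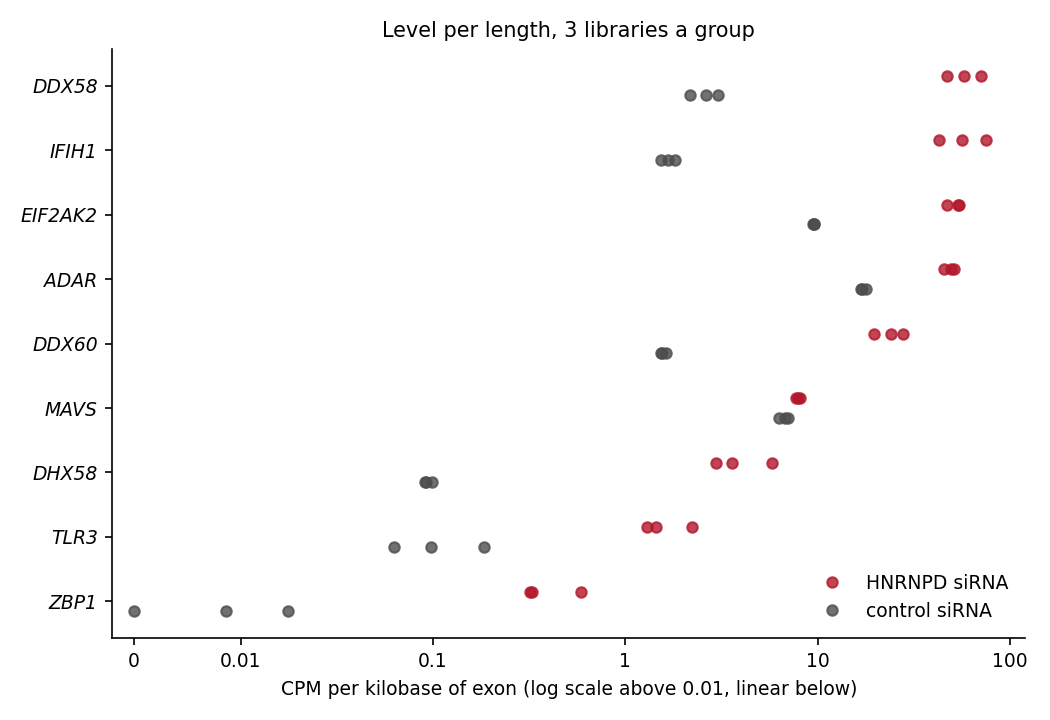
CPM per kilobase of exon (x axis, log scale above 0.01 and linear below) of the 9 genes in HNRNPD siRNA libraries (red, upper point row of each gene) and control siRNA libraries (grey, lower row), 3 libraries each. DDX58 and IFIH1 sit beside EIF2AK2 and ADAR in red and below MAVS in grey.

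As the genes changed by unequal amounts, their ratios within a library also differed between the groups. The ratio of IFIH1 to ADAR, the sensor and the enzyme that hides cellular duplexes from it, was 1.11, 0.945 and 1.52 per kilobase in HNRNPD siRNA replicates 1 to 3. In control replicates 1 to 3 it was 0.102, 0.0988 and 0.0912. The groups were apart by 12.0-fold, a log2 difference of 3.59.

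The ratio of DDX58 to ADAR was 1.14, 1.04 and 1.43 with HNRNPD siRNA and 0.121, 0.155 and 0.181 with control siRNA, apart by 7.94-fold. That of EIF2AK2 to ADAR was 1.07, 1.04 and 1.08 with HNRNPD siRNA and 0.536, 0.559 and 0.572 with control siRNA, apart by 1.92-fold, with little spread in either group. The ratio of DHX58, the modulator, to DDX58 plus IFIH1, the sensors, was 0.0314, 0.0327 and 0.0397 with HNRNPD siRNA and 0.0230, 0.0212 and 0.0218 with control siRNA. This was a shift of 1.56-fold. For each of these 4 ratios the exact two-sided permutation test gave p = 0.1 (n = 3 each), the smallest value that 3 libraries against 3 allow, so none can pass 0.05. These are ratios of mRNA, and neither protein nor editing was measured.

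**Figure D4:**
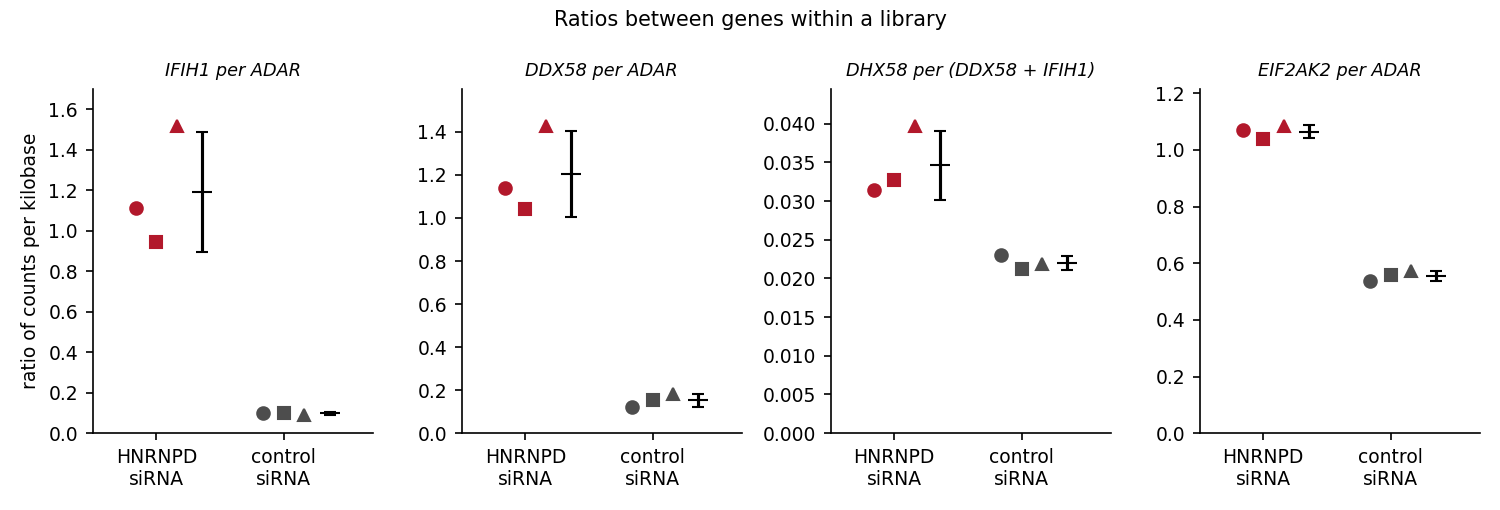
Ratio of counts per kilobase between genes within each library (y axis, linear from 0), in HNRNPD siRNA libraries (red, left) and control siRNA libraries (grey, right). Symbols mark replicates 1, 2 and 3, and black marks are means with SDs. All 3 red points lie above all 3 grey points in each of the 4 panels.

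The 9 genes also differed in how much the HNRNPD siRNA libraries varied. MAVS, ADAR and EIF2AK2 had coefficients of variation of 2.51%, 6.04% and 7.96% over these libraries, and their highest library was replicate 1. DDX60 had 16.9%, DDX58 20.1%, IFIH1 27.9%, TLR3 30.4%, DHX58 36.3% and ZBP1 37.4%, and for these 6 genes the highest library was replicate 3. Replicate 2 was the lowest library for 8 of the 9 genes, MAVS being the exception. HNRNPD, the targeted mRNA, was at 167 CPM in replicate 3 and 163 CPM in replicate 2. Without replicate 3 the log2 fold changes were 4.33 for DDX58, 4.88 for IFIH1, 5.10 for DHX58 and 3.79 for DDX60.

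The genes with the most similar pattern were sought among the 11333 that averaged 5 CPM or more. The measure was the Euclidean distance over the 6 libraries of log2(CPM + 0.5), set to a mean of 0 in the control libraries. Nearest to DDX58 were HELZ2 (distance 0.46) and TNFSF10 (0.46), and nearest to IFIH1 were SP110 (0.46) and RP11-288L9.4 (0.48). TNFSF10 (0.19) and SAMD9L (0.23) were nearest to DHX58, and IRF7 (0.28) and FST (0.34) to DDX60. PPM1K (0.52) and PLEKHA4 (0.71) were nearest to TLR3. The added 0.5 CPM understates the change of genes whose control level lies under or near it, which holds for DHX58, TLR3, IRF7 and RP11-288L9.4. Fitted log2 fold changes were 4.55 for IRF7 and 4.47 for FST, against 3.92 for DDX60. The fitted log2 fold change of RP11-288L9.4 was 7.90, against 5.12 for IFIH1, and those of TNFSF10 and SAMD9L were 4.84 and 4.43, against 5.44 for DHX58.

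By the same measure, NR4A2 (0.16) and FAM46A (0.18) were nearest to EIF2AK2, and MBD5 (0.14) and HEXIM1 (0.14) to ADAR. For MAVS they were RP11-140L24.4 (0.06) and ERP29 (0.06). For ZBP1, whose control level is also under the added 0.5 CPM, they were NMI (0.17) and TYMP (0.17), with fitted log2 fold changes of 2.34 and 2.40 against 5.47 for ZBP1. SP110 had 323 CPM with HNRNPD siRNA and 10.5 CPM with control siRNA, and HELZ2 had 278 CPM with HNRNPD siRNA and 11.3 CPM with control siRNA.

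Downstream of MAVS, 2 of 18 tested adaptor, kinase and transcription factor genes rose by 2-fold or more, and 0 fell that far. Over all tested genes 10.2% were called higher by at least 2-fold, so this count of rises is near the background. In all 8 were called higher and 5 lower, the median being a log2 fold change of 0.09. Over all tested genes 28.4% were higher and 27.8% lower, so the count of lower genes is near the background. IRF7, a transcription factor of the interferon genes, had the largest rise, to 16.8 ± 1.88 CPM with HNRNPD siRNA against 0.715 ± 0.0213 CPM with control siRNA (SD, n = 3 each; log2 fold change 4.55, SE 0.14). Its partner IRF3 was lower (log2 fold change -0.32, SE 0.07), and the kinase TBK1, which phosphorylates both, was 1.24-fold higher. Exons of BCL2L12, on the opposite strand, cover a fraction of 0.193 of those of IRF3. BCL2L12 had 10365 to 13157 counts with HNRNPD siRNA, where IRF3 had 11110 to 14251. With control siRNA they had 15356 to 16948 and 16298 to 18139 counts, so their counts cannot be told apart. AZI2, an adaptor of TBK1, was 2.08-fold higher, though exons of other genes cover a fraction of 0.554 of its own. IKBKG, the NEMO subunit of the IKK complex, and TOMM70, a mitochondrial import receptor described as a partner of MAVS, were lower (log2 fold change -0.64, SE 0.06, and -0.55, SE 0.06).

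Among regulators of the RIG-I-like receptors, 16 of 30 tested genes were higher and 9 lower (median log2 fold change 0.20). Over all tested genes 28.4% were higher and 27.8% lower, so the count of lower genes is near the background. TRIM25, a ubiquitin ligase described as an activator of RIG-I, had 206 ± 22.3 CPM with HNRNPD siRNA and 56.8 ± 0.394 CPM with control siRNA (SD, n = 3 each), a fold change of 3.63. TRIM14, described as a MAVS partner, was 4.24-fold higher. In all, 7 genes of this list were at least 2-fold higher, against 10.2% of all tested genes: these TRIM genes, DDX60L as given above, and ISG15 (81.6-fold), HERC5 (51.8-fold), NLRC5 (25.1-fold) and ZC3HAV1 (3.54-fold), named after their values were seen. ISG15 is a ubiquitin-like modifier and HERC5 its ligase, NLRC5 a regulator of HLA class I genes and ZC3HAV1 the antiviral protein ZAP. Those lower included the 14-3-3 genes YWHAH and YWHAE (log2 fold change -0.68, SE 0.07, and -0.49, SE 0.06), whose proteins are described as carrying RIG-I and MDA5 to the mitochondrion.

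Among the Toll-like receptor genes tested, TLR3 alone was called higher. Of the other 9 listed, 6 failed the filter, among them TLR7 and TLR8 with 0 counts in each library, and TLR4 was not called. TLR1, a receptor of bacterial lipopeptides, was lower at 0.667 ± 0.208 CPM with HNRNPD siRNA and 1.96 ± 0.351 CPM with control siRNA, and TLR6, its relative, at 27.6 ± 3.35 CPM with HNRNPD siRNA and 40.5 ± 3.06 CPM with control siRNA (SD, n = 3 each). Of the 10 tested genes among the Toll-like receptors and the partners of TLR3, 3 were higher and 5 lower (median log2 fold change -0.05), against 28.4% higher and 27.8% lower over all tested genes, so the higher count is near the background. TLR3 itself is not counted there. UNC93B1, which carries TLR3 to endosomes, was 1.29-fold higher. The adaptor of TLR3, TICAM1, was not called (log2 fold change 0.19, SE 0.20).

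Adaptors of other Toll-like receptors did change. MYD88 was 4.06-fold higher, at 61.9 ± 9.53 CPM with HNRNPD siRNA and 15.2 ± 0.860 CPM with control siRNA (SD, n = 3 each). TICAM2 was 2.28-fold higher, but exons of other genes cover a fraction of 0.934 of its own. WDFY1, described as a link between TLR3 and TICAM1, was lower (log2 fold change -1.12, SE 0.08), as was CD14, a co-receptor of bacterial lipopolysaccharide (-1.98, SE 0.30).

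Around PKR, 6 of 21 tested genes were higher and 10 lower (median log2 fold change -0.18). The share of higher genes is near that of all tested genes, 28.4% of which were higher and 27.8% lower. EIF2AK2 was the only called-higher gene among the eIF2α kinases. EIF2AK1, the heme-regulated kinase, was lower, at 113 ± 8.66 CPM with HNRNPD siRNA and 171 ± 1.24 CPM with control siRNA (SD, n = 3 each), and EIF2AK3 and EIF2AK4 were not called (log2 fold change 0.04, SE 0.07, and 0.06, SE 0.06). The eIF2 subunit EIF2S2 was lower (log2 fold change -0.46, SE 0.06). DNAJC3, a chaperone known to inhibit PKR, was 1.28-fold higher and TRAF2, a signalling adaptor, 1.81-fold higher.

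The phosphatase subunit PPP1R15A (GADD34), which reverses eIF2α phosphorylation, had the largest rise of this list and was named after its values were seen. It had 689, 887 and 1632 CPM in HNRNPD siRNA replicates 1 to 3 and 201, 241 and 217 CPM in control replicates 1 to 3. Replicate 3 was again the highest, and the fitted fold change was 4.87 (log2 2.28, SE 0.39, edgeR adjusted p = 0.00795). Its paralog PPP1R15B was lower (log2 fold change -0.37, SE 0.07). Among partners of PKR that bind double-stranded RNA, TARBP2 was higher (log2 fold change 0.35, SE 0.10), a call lost without control replicate 2 (adjusted p = 0.0551). PRKRA, the activator PACT, was not called (log2 fold change -0.18, SE 0.09).

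In the list of ADAR paralogs and partners in editing or double-stranded RNA binding, 1 of 20 tested genes was higher and 12 were lower (median log2 fold change -0.29). The list is not limited to genes that edit or bind double-stranded RNA, as it includes the import receptor TNPO1, which was lower. Over all tested genes 28.4% were higher and 27.8% lower. ADARB1, the paralog that edits neuronal receptor mRNAs, had 5.61 ± 0.106 CPM with HNRNPD siRNA and 6.84 ± 0.545 CPM with control siRNA (SD, n = 3 each). Its call (edgeR adjusted p = 0.0442) was lost under 10 of 15 alternatives, with an adjusted p of up to 0.164. ADARB2 and ADAD2 had a few counts in 2 libraries each at most, and ADAD1 had 0.

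The 1 gene higher was DHX36, a helicase of G-quadruplexes (log2 fold change 0.19, SE 0.06), a call that ended without control replicate 2 (adjusted p = 0.0717). TNPO1, the import receptor that carries ADAR into the nucleus, had the largest fall, with 118 ± 1.18 CPM with HNRNPD siRNA and 227 ± 7.74 CPM with control siRNA (SD, n = 3 each; log2 fold change -0.94, SE 0.06). STRBP, a spermatid RNA-binding protein, and DHX9, an RNA helicase that unwinds duplexes, were lower as well (-0.60, SE 0.07, and -0.34, SE 0.05).

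Of 8 tested partners of ZBP1 in cell death, 5 were higher and 1 was lower (median log2 fold change 0.47), against 28.4% higher and 27.8% lower over all tested genes. CASP8, the protease that restrains necroptosis, was 2.36-fold higher, at 113 ± 10.7 CPM with HNRNPD siRNA and 47.8 ± 3.51 CPM with control siRNA (SD, n = 3 each). GSDMD, which forms pores in pyroptosis, was 2.17-fold higher and MLKL, the executor of necroptosis, 1.76-fold. GSDME, a related pore protein, was lower (log2 fold change -0.74, SE 0.10). RIPK3, the kinase through which ZBP1 acts on MLKL, had 0 counts in each of the 6 libraries. The approximate counting limit for 0 counts was 0.0698 to 0.0808 CPM per library.

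**Figure D5:**
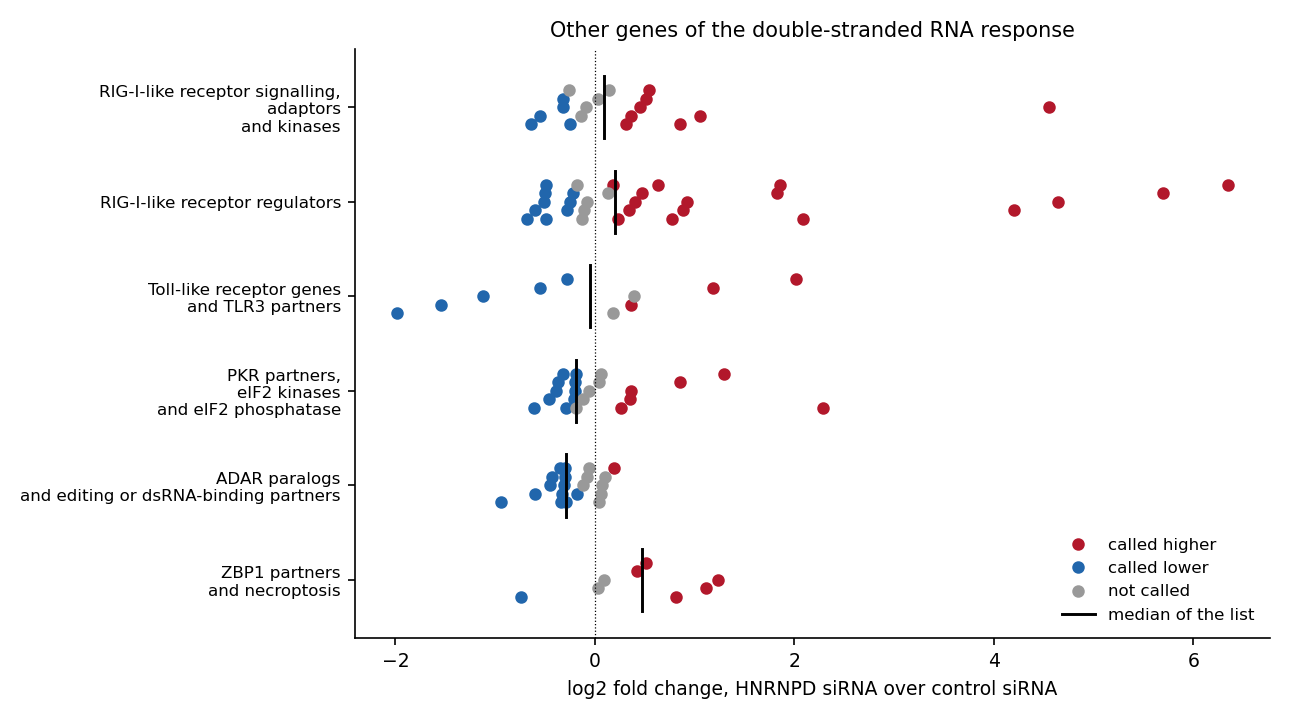
Log2 fold change, HNRNPD siRNA over control siRNA (x axis), of each tested gene in 6 lists of related genes, spread vertically within a list for legibility. Red and blue points mark calls of higher and lower, grey points were not called, and black bars are list medians, from -0.29 for ADAR paralogs and partners to 0.47 for ZBP1 partners.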

How the data were processed

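RNA-seq was done on 6 libraries of A549 cells, 3 with HNRNPD siRNA and 3 with negative-control siRNA. Per the labels, RNA was taken with Trizol and sequenced after preparation with an Illumina TruSeq kit. The deposited values are raw read counts per gene, with exonic lengths in bases. Bowtie 0.12.2 and the builds GRCh38 and mm8 appear in the submitters' processing notes with no role. No source used here names the counter, the annotation or its strand setting. Small counts were mostly even (66.2% to 69.5% of counts from 1 to 20), for a reason that was not tested, and counting intervals may be too narrow. Intervals and limits cover counting error only, and for a count of 0 an approximate upper limit of 3 counts was used. Chi-square per degree of freedom between replicates was 6.63 to 27.67, above sampling noise, and each library was counted as 1 sample.

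Of the deposited gene names, 28 read as dates, of which 27 were recovered by position, and GSDME was found under the name DFNA5. Counts were tested with edgeR 4.0.16 (R 4.3.3), using filterByExpr, TMM, robust quasi-likelihood and group as the only term, with Benjamini-Hochberg adjustment over 20465 genes. Standard errors are the size of the fold change (log2) over the square root of F. The fit was tested on simulated data for bias, false calls and recovery of large changes. Only a small share of genes was changed there, equally many up and down. In the real data 28.4% were called higher and 27.8% lower, and the fit was not tested at such a share. Some simulated 2-fold changes were missed, so a gene that was not called may still have changed. Alternatives used DESeq2 1.42.0 and limma 3.58.1. Ratios were tested with exact permutation in scipy 1.17.1.

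The members and lists were chosen with earlier results of these data known. The rule for naming took all members, the 2 smallest p-values per direction in each list, and the 2 nearest genes of each member; other genes are marked as named after their values were seen, or are paralogs, partners or controls given for context. Correlations of deviations between same-numbered libraries were 0.077, 0.026 and -0.001 over 11334 genes, so the numbers were not taken to pair the libraries.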

Additional observations from a re-analysis of the deposited data

How the results depend on the processing

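The fit was repeated under 15 alternatives, namely DESeq2 size factors, library totals only, no filter on low counts, at least 1 CPM in 3 libraries, the DESeq2 Wald test, limma-voom, a replicate block, counts divided by 2, no mitochondrial genes, and each library left out in turn. All 9 members were called higher under each of the 15. The log2 fold change of MAVS ran from 0.18 to 0.26, with an adjusted p of up to 0.0372, without control replicate 2. That of ADAR ran from 1.45 to 1.55, that of EIF2AK2 from 2.39 to 2.50, that of TLR3 from 3.54 to 4.35 and that of ZBP1 from 4.90 to 6.38. Over all genes, 5125 to 5965 were higher and 5049 to 5926 lower. With the replicate block the counts were 5792 higher and 5737 lower, and it ended the call of ADARB1 (adjusted p = 0.0532) and of no other gene named here. Not every library correlated best with its own number. The count of higher genes among ADAR paralogs and partners ran from 0 to 1 over the libraries left out. It was 0 in edgeR without control replicate 2, where 1 gene, DHX36, had an unadjusted p under 0.05; the cause was not tested. The ratios kept their direction over the 7 alternatives that touch them. Of the nearest genes, RP11-140L24.4 (adjusted p = 0.0517) and ERP29 (0.0662) lost their calls without control replicate 2. No result reversed. Depth limits ZBP1, TLR3 and DHX58, which had 6, 98 and 46 control counts in all.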
